A study of Homo sapiens with 10 samples.

Results

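The mitochondrial ribosomal protein genes described here are the protein-coding genes whose official symbol begins with MRPL or MRPS followed by a number. Of 63140 gene identifiers in the count table, 62541 had a symbol, 166 symbols matched this pattern, and 88 of those were not annotated as protein-coding and were left out. The 78 remaining genes, 49 MRPL and 29 MRPS, were all abundant enough to be among the 16382 genes tested. The symbols do not quite follow the assembled particle. MRPS18A and MRPS30 sit in its large subunit, and MRPS36 is now known as a subunit of the 2-oxoglutarate dehydrogenase complex. By the assembled ribosome there are 51 large and 26 small subunit genes, and counts below are by symbol unless the assembled subunit is named.

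Mitochondria translate the few membrane proteins of the respiratory chain that their own genome encodes, on ribosomes whose RNAs are made in the organelle. Every protein of these ribosomes is encoded in the nucleus, made in the cytosol and imported. The small subunit decodes the mRNA and the large subunit forms the peptide bond, and both hold proteins inherited from the bacterial ribosome beside proteins found only in mitochondria.

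The cells were of the established line HS-SY-II, from a human synovial sarcoma. They received 100 nM WA-68, a PROTAC (a bifunctional degrader) directed at BRD9, the bromodomain protein of the non-canonical form of the BAF remodeller, and were taken after 12, 24, 48 or 96 h, or they received the DMSO vehicle. Each of the 5 groups had 2 labelled biological replicates, and no label says when the DMSO cultures were harvested. All p-values therefore measure the spread between replicate cultures of a single line, and time in culture and treatment cannot be told apart.

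Total counts per library ran from 7349744 to 13200051, and the 78 genes took 0.251% to 0.289% of them, with 18 to 2509 counts for a gene in a library. BRD9 mRNA itself stood at 88.2 and 89.3 CPM at 96 h, against 100.1 and 108 CPM in DMSO (log2 fold change −0.23, adjusted p = 0.0935), and a degrader acts on the protein, so this mRNA does not check the treatment. The synovial sarcoma genes TLE1, SS18, SSX1 and BCL2 ran at 192 to 248, 224 to 261, 41.7 to 57.2 and 172 to 203 CPM over all libraries, the keratin KRT19 at 0.622 to 3.93 CPM, and PTPRC, CD3E, PECAM1 and MYOD1 had 0 counts. CD68, VWF, CDH5, ALB and DES had at most 3 counts in a library. The muscle gene MYH3 was detected in every library, at 1.47 to 3.22 CPM (13 to 34 counts). On the second principal component 2 libraries, the second replicates of DMSO and of 96 h, lay away from the other 8 (−24.2 and −26, against −0.71 to 14.4). The difference of replicate 2 from replicate 1 followed transcript GC content over all genes in DMSO (Spearman's rho 0.573, a description), with rho of −0.0559, −0.166, −0.292 and 0.289 at 12, 24, 48 and 96 h. Results are also given without those 2 libraries where that ends a call named here.

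The stretch around the start of transcription is shown for 5 of the genes with the clearest changes, because MRP genes are known for short promoters bound by ETS factors such as GABPA, by YY1 and by NRF1. RefSeq sequence of GRCh38.p14 (250 bases before the start to 50 after it) was found for 69 of the 78 genes. The letters searched, on both strands, were CCGGAAG for ETS factors, AAGATGGCG for YY1, the palindromic motif of NRF1 with its central base free and CACGTG for the E-box that MYC binds. Capitals mark a match, and an ETS match on the opposite strand reads CTTCCGG. MRPS34 lies at chr16:1773085-1773384 on the minus strand, MRPS26 at chr20:3045802-3046101 on the plus strand, MRPL42 at chr12:93467264-93467563 on the plus strand, MRPS27 at chr5:72320191-72320490 on the minus strand and MRPL12 at chr17:81703117-81703416 on the plus strand.
MRPS34: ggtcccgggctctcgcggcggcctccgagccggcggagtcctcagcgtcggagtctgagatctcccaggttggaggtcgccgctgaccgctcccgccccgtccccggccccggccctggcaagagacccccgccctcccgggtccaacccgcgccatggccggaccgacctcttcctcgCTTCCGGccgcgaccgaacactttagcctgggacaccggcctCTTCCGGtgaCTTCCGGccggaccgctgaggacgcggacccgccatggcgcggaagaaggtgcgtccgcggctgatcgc
MRPS26: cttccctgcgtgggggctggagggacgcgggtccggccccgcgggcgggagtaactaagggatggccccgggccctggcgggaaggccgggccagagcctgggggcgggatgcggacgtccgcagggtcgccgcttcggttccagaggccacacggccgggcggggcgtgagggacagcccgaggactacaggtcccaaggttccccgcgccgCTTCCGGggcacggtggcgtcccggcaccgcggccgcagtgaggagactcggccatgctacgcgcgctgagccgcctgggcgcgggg
MRPL42: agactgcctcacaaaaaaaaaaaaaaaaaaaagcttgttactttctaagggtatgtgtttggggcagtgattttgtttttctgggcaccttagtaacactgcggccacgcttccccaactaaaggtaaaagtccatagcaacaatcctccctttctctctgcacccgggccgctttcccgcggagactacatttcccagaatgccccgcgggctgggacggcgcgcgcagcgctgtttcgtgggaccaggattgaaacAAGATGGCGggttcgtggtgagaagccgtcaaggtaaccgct
MRPS27: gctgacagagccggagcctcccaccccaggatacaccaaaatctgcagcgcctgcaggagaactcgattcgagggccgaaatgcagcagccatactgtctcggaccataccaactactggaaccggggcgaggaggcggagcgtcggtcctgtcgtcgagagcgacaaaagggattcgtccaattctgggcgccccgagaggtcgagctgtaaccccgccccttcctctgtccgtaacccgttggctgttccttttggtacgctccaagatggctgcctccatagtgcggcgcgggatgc
MRPL12: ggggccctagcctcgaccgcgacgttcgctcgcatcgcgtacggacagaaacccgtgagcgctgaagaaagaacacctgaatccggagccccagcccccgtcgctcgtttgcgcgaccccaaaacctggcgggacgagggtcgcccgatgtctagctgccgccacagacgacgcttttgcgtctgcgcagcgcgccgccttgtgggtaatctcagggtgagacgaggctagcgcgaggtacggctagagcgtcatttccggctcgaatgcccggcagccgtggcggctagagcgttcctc

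MRPS34 held 3 ETS matches, MRPS26 had 1 and MRPL42 had 1 YY1 match just after its start, while MRPS27 and MRPL12 held none of these letters in this window. Over the 69 genes, 29 (42.03%) held the ETS letters, against 19.2% of the 10803 promoters of tested genes and 10.7% of all 27305 promoters. The YY1 letters were in 13 (18.8%), against 3.99% and 1.85%. The NRF1 letters were in 8 (11.6%), against 12.0% and 6.29%, and the E-box in 6 (8.70%), against 10.2% and 7.44%. The ETS and YY1 matches lay close to the start, 27 of 39 and 11 of 14 within 50 bases of it. These letters describe the windows and do not show binding. Among the 12 genes that fell at 96 h, all 12 with a window, 7 held the ETS letters, 1 the YY1 letters, 1 the NRF1 letters and 0 the E-box.

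Levels differed widely among genes whose proteins mostly enter the particle in equal number. Levels per kilobase of the principal transcript were averaged over the 10 libraries. Among the MRPL genes the highest were MRPL43 at 201.5 and MRPL51 at 53.6 CPM per kilobase. Among the MRPS genes the highest were MRPS30 at 89.5 and MRPS16 at 48.4. The lowest MRPL genes were MRPL53 at 2.69 and MRPL50 at 4.38. The lowest MRPS genes were MRPS17 at 5.27 and MRPS18C at 5.76 CPM per kilobase. None of these 8 was called at any time against DMSO. The highest and the lowest values carry a limit of annotation. Among the highest, 32.7% of MRPL43 exon length overlaps SEMA4G and 31.3% of that of MRPL51 overlaps NCAPD2, both on the opposite strand. Among the lowest, 45.2% of MRPL53 exon length overlaps CCDC142 and 21.8% of that of MRPS17 an unnamed gene, both on the same strand. For MRPS18C 40.2% overlaps ABRAXAS1 on the opposite strand. The library kit marks strand, but the strand setting of the counting is not given in the sources used here. In all, 41 of the 78 genes share exon bases with another annotated gene, 25 of them over more than 10% of their exon length.

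Against DMSO the summed levels of the group were lower at every time, and their mean was lowest at 96 h. The summed level of the large subunit genes was 1721 and 1759 CPM in DMSO, 1684 and 1628 after 12 h, 1620 and 1624 after 24 h, 1555 and 1494 after 48 h, and 1472 and 1561 after 96 h. Both libraries of every treated group lay below both DMSO libraries. The small subunit genes summed to 1246 and 1219 CPM in DMSO, 1161 and 1130 after 12 h, 1142 and 1151 after 24 h, 1140 and 1083 after 48 h, and 1065 and 1032 after 96 h, again with no overlap between any treated group and DMSO. As a share of unscaled counts, all 78 genes took 0.2858% in replicate 1 of 12 h and 0.2852% in replicate 2 of DMSO. For the 78 genes together the separation at 12 h thus depends on the scaling. At 96 h the sum over all 78 genes was 2565 ± 39.7 CPM, against 2972 ± 7.58 in DMSO (SD, n = 2 each), which is 13.7% lower. An exact test of 2 libraries against 2 cannot reach 0.05, so no p is given for the sums. In bulk RNA, fewer cells that express these genes and less of their RNA per cell cannot be told apart.

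**Figure D1:**
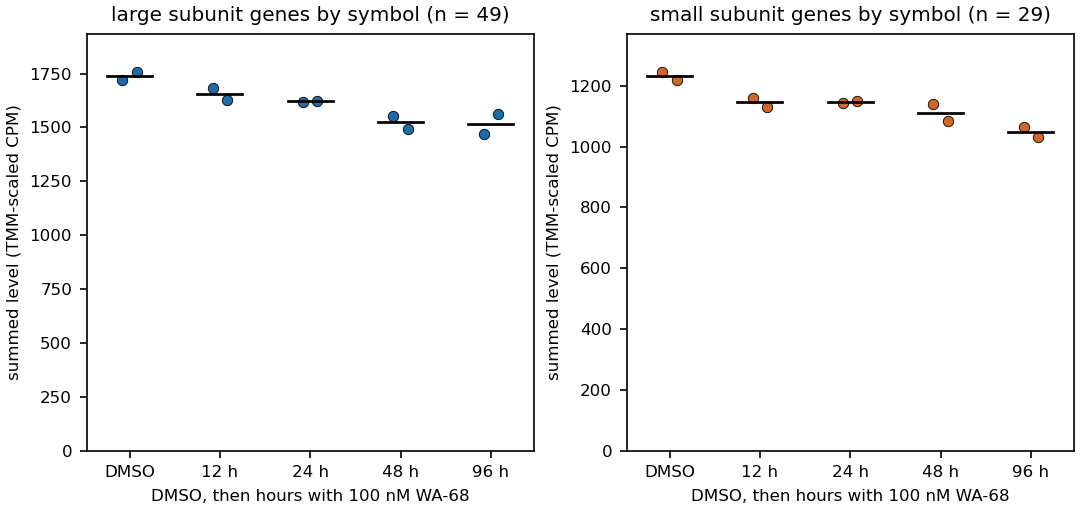
Summed TMM-scaled CPM of the 49 MRPL genes (left) and the 29 MRPS genes (right) in each library, in DMSO and after 12, 24, 48 and 96 h of 100 nM WA-68; points are libraries and bars are group means. The treated libraries lie below both DMSO libraries in both panels, and the 96 h libraries lie at 1472 and 1561 CPM on the left and 1065 and 1032 CPM on the right.

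Gene by gene, few changes passed the test at the early times. With edgeR's quasi-likelihood test and Benjamini-Hochberg adjustment over all genes, 1 of 78 fell at 12 h, where 1.92% of all genes tested were called lower, and 0 of 78 fell at 24 h, where 2.25% were. At 24 h, 9 had an unadjusted p under 0.05, 8 of them with a negative fold change, where 16.5% of all genes had such a p and 9.07% also a negative fold change, and DESeq2 and limma-voom also called 0. At 48 h 8 fell (10.3%, with 5.38% of all genes called lower), and at 96 h 12 fell (15.4%, with 6.86%). No gene of the group was called higher at any of the 4 times by the edgeR fit reported here, by DESeq2 or by limma-voom. That edgeR fit called 1.23%, 1.34%, 4.01% and 6.14% of all genes higher at 12, 24, 48 and 96 h. With upper-quartile factors, library size only, the 4 libraries compared or an offset for GC content, edgeR called 1 of the 78 higher at 12 h. Of all genes 234, 287, 223 and 525 were called higher under these settings. At an unadjusted p under 0.05, 2, 1, 0 and 0 of the 78 had a positive fold change, beside 7.07%, 7.44%, 10.2% and 12.2% of all genes. The count at 96 h was 7 with DESeq2, 7 with scaling by library size only, 4 with only the 4 libraries compared and 20 with an offset for GC content, beside 4.87%, 4.96%, 3.64% and 11.3% of all genes called lower under the same settings. It was lower without either 96 h library. Without replicate 2 of DMSO and of 96 h together MRPL3, MRPL48, MRPS6, MRPS12 and MRPS26 lost the call. Less the median of all genes, the group's median log2 fold change at 96 h was −0.1646 as reported. It was −0.1661 and −0.2106 without replicate 1 and 2 of 96 h, and −0.2003 without replicate 2 of DMSO and of 96 h together. The 48 h count was less stable. It was 3 (3.85%) with upper-quartile factors, library size only or DESeq2, where 3.93%, 3.32% and 3.88% of all genes were called lower, and 3 without any one library of 12 h or 24 h. It was 2 without replicate 1 and 0 without replicate 2 of 48 h, 13 with replicate 1 of DMSO left out and 5 with its replicate 2 left out.

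**Figure D2:**
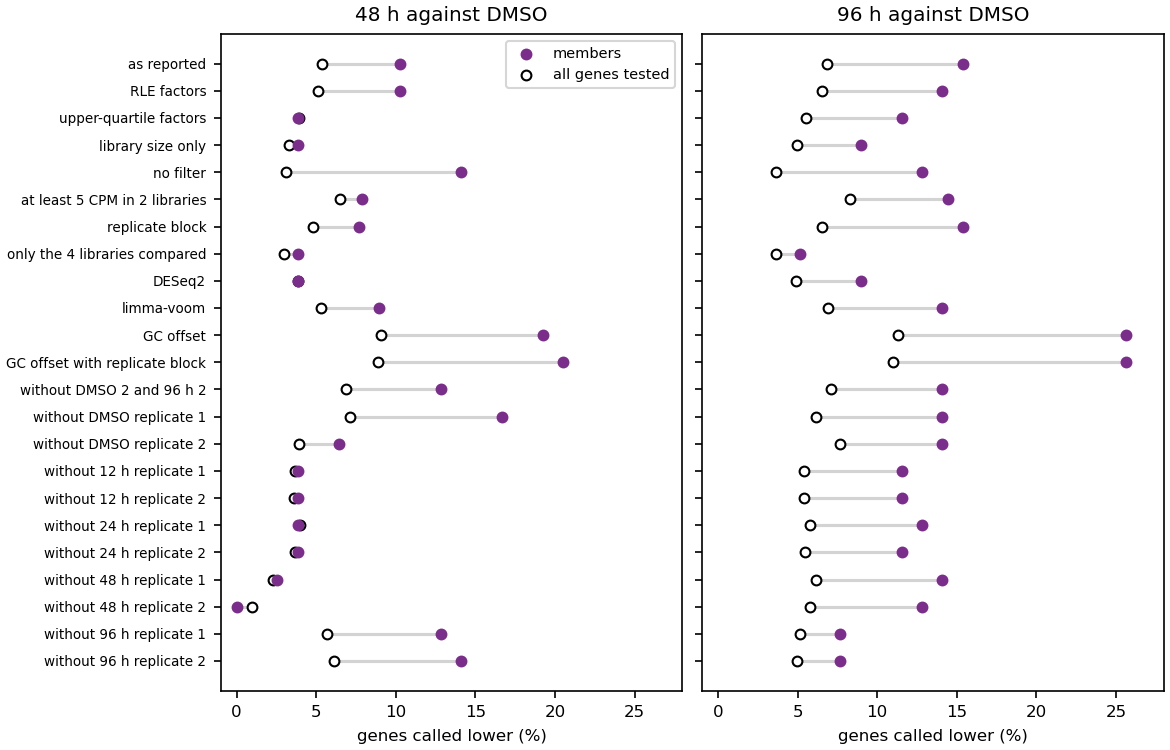
Share of genes called lower (percent) at 48 h (left) and 96 h (right) against DMSO, for the 78 mitochondrial ribosomal protein genes (filled) and for all genes tested (open), under each setting of the processing, one per row. At 96 h the share in the group lay above that of all genes under every setting shown, while at 48 h both were near 4% under several settings and the group's share was 0% without replicate 2 of 48 h.

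The shift was broad and shallow. The median log2 fold change of the 78 genes was −0.06, −0.07, −0.16 and −0.17 at 12, 24, 48 and 96 h, against −0.0021, −0.00085, −0.0070 and −0.0083 over all genes tested. It was negative in 54, 62, 70 and 66 of the 78 genes, where 50.4%, 50.1%, 51.2% and 51.2% of all genes had a negative value. Both treated libraries lay below both DMSO libraries for 20, 25, 38 and 43 genes, against 22.1%, 23%, 25.2% and 25% of all genes, so the 12 h count is near the background. The 4 comparisons share the same 2 DMSO libraries. At 96 h the 12 genes with a fold change above 0 were MRPL16, MRPL20, MRPL46, MRPL49, MRPL57, MRPL58, MRPS5, MRPS11, MRPS14, MRPS22, MRPS24 and MRPS31, and the highest of them, MRPL46, a protein of the central protuberance of the large subunit, had 0.19 ± 0.20 (SE; adjusted p = 0.603). Only MRPS22, a small subunit protein, had both 96 h libraries above both DMSO libraries, as 23% of all genes did.

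**Figure D3:**
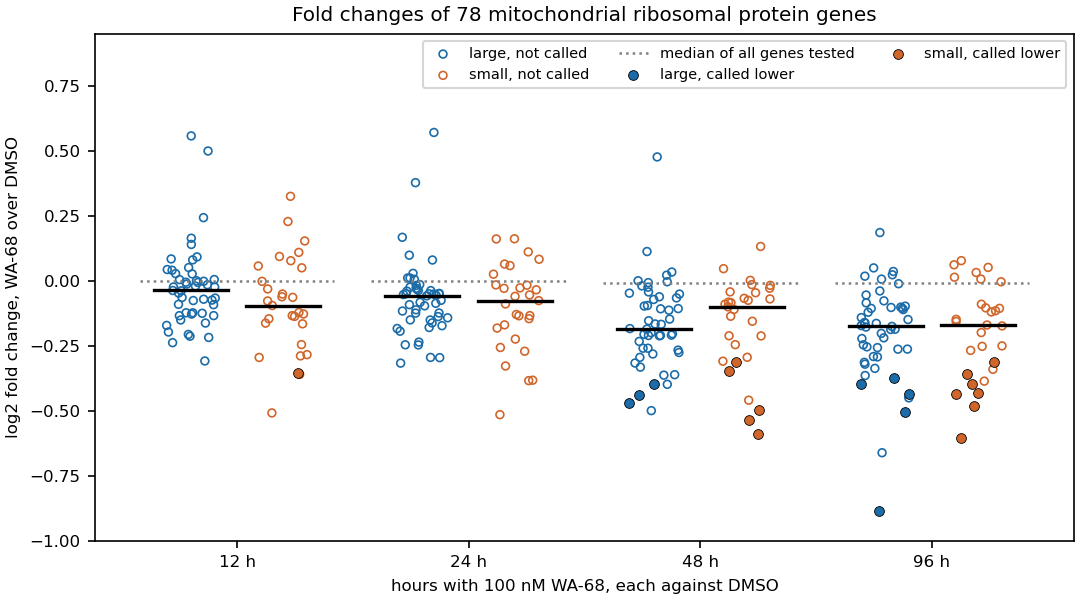
Log2 fold change of each of the 78 genes at 12, 24, 48 and 96 h against DMSO, split by symbol into large (blue) and small (orange) subunit; each point is a gene, filled points were called lower, black bars are medians and dotted lines the median of all genes tested. The 96 h medians are −0.18 for large and −0.17 for small subunit genes, and no gene above 0 is filled.

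MRPL12 had the largest fall. Its protein forms the flexible stalk of the large subunit that meets the translation factors. The gene (ENSG00000262814) lies on chromosome 17 from 81703357 to 81707526 on GRCh38. It stood at 20.1 and 16.7 CPM in DMSO, 17.0 and 17.1 after 12 h, 15.4 and 16.9 after 24 h, 14.1 and 14.8 after 48 h, and 10.8 and 9.12 after 96 h. The 96 h libraries lay below all 8 others, while the 12 h libraries lay within the DMSO range. At 96 h the level was 9.94 ± 1.16 CPM, against 18.4 ± 2.45 CPM in DMSO (SD, n = 2 each), a log2 fold change of −0.88 ± 0.15 (SE; edgeR adjusted p = 0.00031), or 45.8% lower. The call held without each library in turn (highest adjusted p 0.00945). Annotation places an unnamed protein-coding gene with 0 counts over 68.2% of its exon length, on the same strand.

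MRPS27, an RNA-binding small subunit protein found only in mitochondria, fell to 92.3 and 96.4 CPM at 96 h, against 132 and 131 CPM in DMSO. It stood at 115 and 120 CPM after 12 h, 122 and 118 after 24 h, and 114 and 108 after 48 h, so that every treated library lay below both DMSO libraries. The log2 fold change at 96 h was −0.48 ± 0.09 (adjusted p = 0.000588), and it too held without each library (highest adjusted p 0.0119). The gene (ENSG00000113048) lies on chromosome 5 from 72219409 to 72320646. MRPL12 and MRPS27 were the only ones of the 12 genes called at 96 h to keep the call without every library in turn.

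MRPS12, the counterpart of the bacterial protein at the decoding centre, had 14.05 and 12.2 CPM at 96 h, against 19.5 and 20.9 CPM in DMSO (log2 fold change −0.60 ± 0.17, adjusted p = 0.0154). Its intermediate groups spread widely, with 18.4 and 15.5 CPM after 12 h, 21.2 and 15.9 after 24 h, and 16.8 and 12.5 after 48 h. The call was lost without replicate 2 of 96 h (adjusted p = 0.0917), and also without replicate 2 of DMSO and of 96 h together (−0.47, adjusted p = 0.111). SARS2, the mitochondrial seryl-tRNA synthetase gene that overlaps 16.3% of its exon length on the opposite strand, had a log2 fold change of −0.02.

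MRPL48, a protein of the central protuberance of the large subunit, had 10.4 and 12.1 CPM at 96 h, against 14.6 and 17.3 CPM in DMSO (−0.51 ± 0.16, adjusted p = 0.0378). At 48 h it stood at 10.3 and 12.1 CPM. The groups do not overlap, but the 96 h call was lost without replicate 2 of DMSO, either 12 h library, replicate 2 of 24 h or replicate 1 of 96 h, with adjusted p up to 0.27. It was also lost without replicate 2 of DMSO and of 96 h together (−0.49, adjusted p = 0.105).

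MRPL42, a mitochondria-specific protein of the large subunit, fell to 109 and 95.4 CPM at 96 h, against 155 and 121 CPM in DMSO (−0.44 ± 0.11, adjusted p = 0.00707), lost without replicate 1 of DMSO (−0.25, adjusted p = 0.146) or replicate 2 of 96 h. MRPL3, whose bacterial counterpart lies near the peptidyl transferase centre, had −0.37 ± 0.11 (adjusted p = 0.0226), lost without replicate 2 of DMSO or either 96 h library (up to 0.0908) and without replicate 2 of both groups together (−0.27, 0.111). MRPL30 had −0.40 ± 0.11 (adjusted p = 0.0152), lost without replicate 1 of DMSO (−0.25) or of 96 h (up to 0.187). All 3 genes had both 96 h libraries below both DMSO libraries.

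MRPS35, a small subunit protein found only in mitochondria, was called lower at 96 h alone among the times tested, though both 12 h libraries also lay below both DMSO libraries. It had 42.2 and 37.5 CPM at 96 h, against 55.6 and 49.6 CPM in DMSO (−0.40 ± 0.11, adjusted p = 0.0144), and 49.2 and 47.0, 48.4 and 55.8, and 52.1 and 48.6 CPM at 12, 24 and 48 h. The call was lost without replicate 1 of DMSO or replicate 2 of 96 h (up to 0.114), and the difference between 96 h and 48 h did not pass the test (−0.33, adjusted p = 0.381). MRPS23 was called at 96 h with −0.36 ± 0.12 (adjusted p = 0.0484) but kept this only without replicate 2 of DMSO, with adjusted p up to 0.483 without any of the 9 others. That highest value, with a fold change of −0.17, came without replicate 1 of DMSO.

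**Figure D4:**
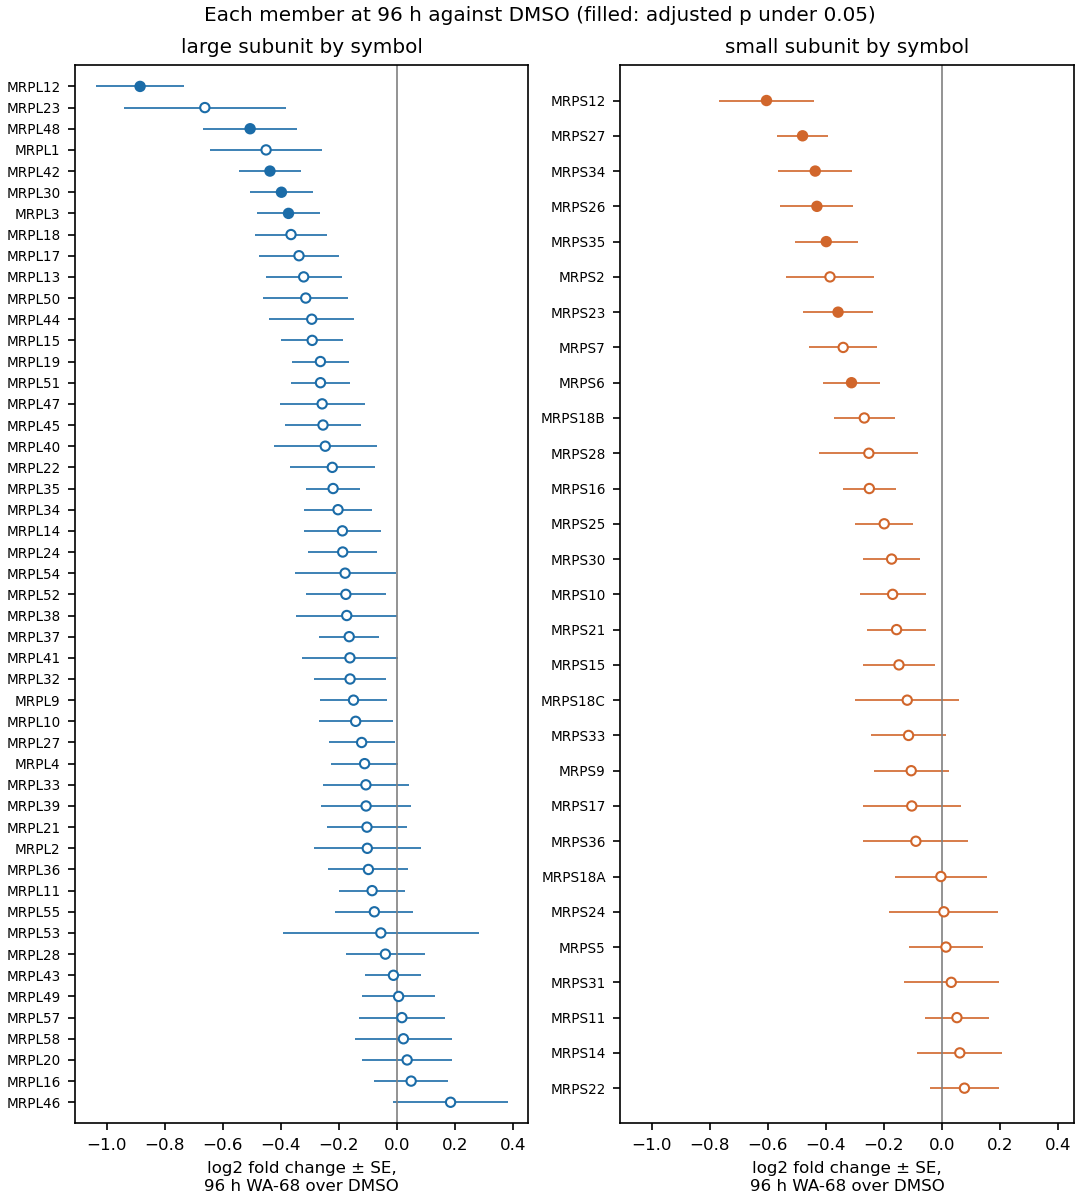
Log2 fold change with its SE for each gene at 96 h of WA-68 over DMSO, large subunit genes by symbol on the left and small subunit genes on the right, sorted; filled points have an adjusted p under 0.05. The 5 filled points on the left run from MRPL12 at −0.88 to MRPL3 at −0.37, and the 7 on the right from MRPS12 at −0.60 to MRPS6 at −0.31.

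Another pattern was a low level already at 12 h that then stayed. MRPS6, the counterpart of bacterial S6 on the platform of the small subunit, was the one gene called at 12 h. SLC5A3 overlaps 6.35% of its exon length on the same strand, with a mean of 182 CPM against 46.8 for MRPS6. SLC5A3 had log2 fold changes of −0.21, −0.32, −0.27 and −0.51 at the 4 times. Its edgeR adjusted p was 0.329, 0.0893, 0.112 and 0.00141. Whether its reads enter the MRPS6 counts was not tested. MRPS6 stood at 54.7 and 57.0 CPM in DMSO, 43.7 and 43.5 after 12 h, 46.0 and 43.1 after 24 h, 43.7 and 46.1 after 48 h, and 44.5 and 45.5 after 96 h, with no treated library near the DMSO pair. The log2 fold changes were −0.35, −0.33, −0.31 and −0.31, each ± 0.10, with adjusted p of 0.0447, 0.0601, 0.0433 and 0.0338, so that all 4 lie near the threshold. At 12 h the call was lost without replicate 2 of DMSO or any library of 12, 24 or 48 h (up to 0.308). At 48 h the same libraries ended it (up to 0.256). At 96 h it was lost without any library except replicate 1 of DMSO and replicate 1 of 48 h (up to 0.151), and without the 2 libraries that lay apart (−0.29, adjusted p = 0.066).

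MRPS26 and MRPS34, both mitochondria-specific proteins of the small subunit, were called at 48 h and at 96 h. MRPS34 stood at 39.2 and 39.1 CPM in DMSO, 33.7 and 30.2 after 12 h, 28.1 and 31.8 after 24 h, 26.7 and 27.4 after 48 h, and 24.9 and 33.8 after 96 h. MRPS26 stood at 29.1 and 35.9 CPM in DMSO, 26.2 and 26.8 after 12 h, 26.5 and 23.1 after 24 h, 21.8 and 21.0 after 48 h, and 24.6 and 23.0 after 96 h. In both genes every treated library lay below both DMSO libraries. MRPS34 had log2 fold changes of −0.54 ± 0.13 at 48 h and −0.44 ± 0.13 at 96 h (adjusted p = 0.00948 and 0.0231). The 48 h call ended without either 48 h library (up to 0.0888) and the 96 h call without replicate 1 of DMSO (0.0571) or of 96 h (−0.20, adjusted p = 0.402). MRPS26 had −0.59 ± 0.13 and −0.43 ± 0.13 (adjusted p = 0.00463 and 0.0236). The 48 h call ended without replicate 2 of 48 h (0.0775), and the 96 h call without replicate 2 of DMSO or either 96 h library (up to 0.161). Without replicate 2 of DMSO its 96 h fold change was −0.28, and without that library and replicate 2 of 96 h together −0.23 (adjusted p = 0.305).

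MRPL37, a mitochondria-specific protein of the large subunit, was called at 48 h and at no other time against DMSO. It stood at 60.2 and 60.0 CPM in DMSO, 57.9 and 60.3 after 12 h, 57.8 and 54.8 after 24 h, 42.6 and 44.2 after 48 h, and 48.4 and 59.6 after 96 h. The 48 h log2 fold change was −0.47 ± 0.11 (adjusted p = 0.00574, up to 0.0688 without either 48 h library) and the 96 h one −0.16 ± 0.10 (adjusted p = 0.334). The 96 h libraries differ from each other by more than the replicates of the other groups, and 96 h against 48 h gave 0.31 ± 0.11 (adjusted p = 0.413), so a return was not shown.

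MRPS2, the counterpart of bacterial S2, had 23.5 and 17.4 CPM at 48 h, against 26.4 and 31.8 CPM in DMSO (−0.50 ± 0.15, adjusted p = 0.0431). At 12, 24 and 96 h, too, every library lay below both DMSO libraries, though the gene was called only at 48 h. At 24 h, where none of the group was called, it was among the 3 with the smallest p. The groups do not overlap, but the replicates differ widely and the call was lost without replicate 2 of DMSO, any library of 12 or 24 h or replicate 2 of 48 h (up to 0.483, with −0.29 without the last of these). Without replicate 2 of DMSO and of 96 h together it had −0.36 (adjusted p = 0.0987). MRPL17, MRPL24 and MRPS21, all with bacterial counterparts, were also called at 48 h, at −0.44, −0.40 and −0.35, with adjusted p of 0.047, 0.0407 and 0.0367. Each was lost without replicate 2 of DMSO or any library of 12, 24 or 48 h (up to 0.387, 0.327 and 0.394). MRPL17 had −0.23 without replicate 2 of DMSO. Without this library and replicate 2 of 96 h together, MRPL17 had −0.23 (adjusted p = 0.313) and MRPL24 −0.27 (adjusted p = 0.117), and none of the 3 was called at 96 h.

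**Figure D5:**
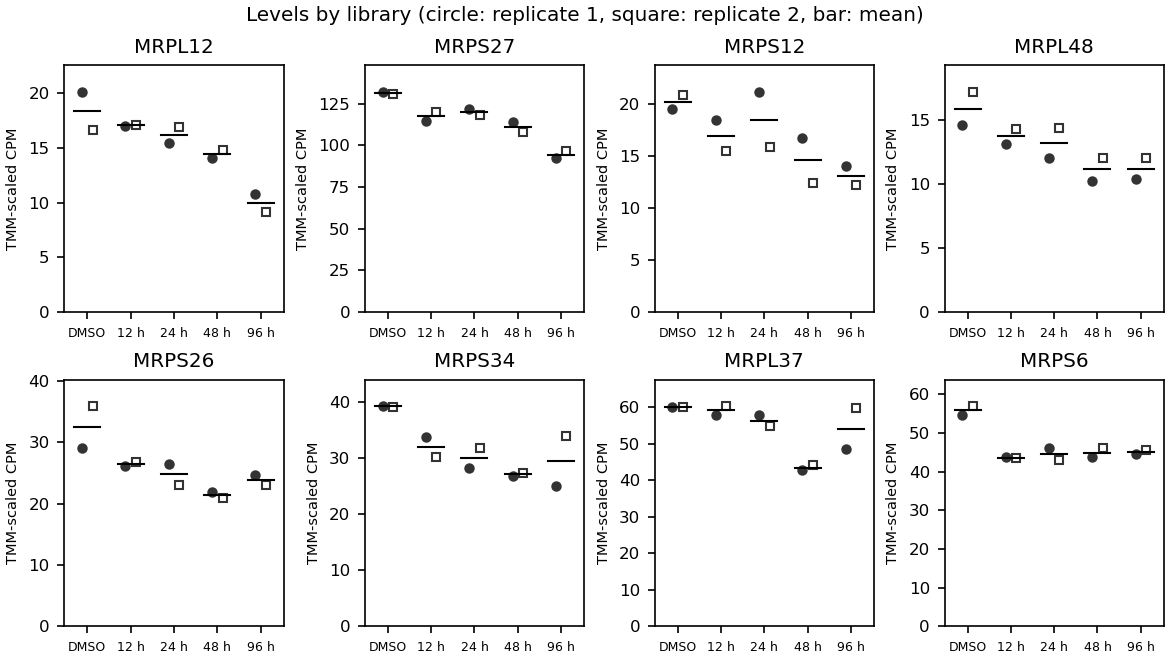
Level in TMM-scaled CPM of 8 genes in each library, in DMSO and after 12, 24, 48 and 96 h of WA-68; circles are replicate 1, squares replicate 2 and bars group means. MRPL12 is lowest at 96 h (10.8 and 9.12 CPM, against 20.1 and 16.7 CPM in DMSO), MRPS6 is already at 43.7 and 43.5 CPM at 12 h, and MRPL37 is lowest at 48 h (42.6 and 44.2 CPM).

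Between treated times, 0 of the 78 genes were called at 48 h against 24 h or at 96 h against 48 h, with edgeR, DESeq2 and limma-voom alike. At an unadjusted p under 0.05 these were 4 (all lower) and 11 (9 lower), where 7.90% and 9.20% of all genes had such a p and 4.22% and 4.58% were also lower, and edgeR called 0.562% and 0.0183% of all genes lower and 0.195% and 0.0183% higher. At 96 h against 12 h, 3 genes were called lower, and 0 higher, with 1.74% of all genes called lower and 2.39% higher. They were MRPL12 (−0.76 ± 0.16, adjusted p = 0.00525), MRPS27 (−0.32 ± 0.09, adjusted p = 0.0435) and MRPL54 (−0.74 ± 0.17, adjusted p = 0.0117). MRPL12 lost this call without either 12 h library (up to 0.0686). MRPS27 lost it without any library of 12, 24, 48 or 96 h (up to 0.325), and MRPL54 without any library of 12 or 96 h (up to 0.128).

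MRPL54, a mitochondria-specific large subunit protein named here after its values were seen, had a course of its own. It stood at 10.96 and 9.57 CPM in DMSO, 15.3 and 15.2 after 12 h, 13.1 and 13.8 after 24 h, 11.8 and 8.76 after 48 h, and 9.18 and 9.12 after 96 h. Both 12 h and both 24 h libraries lay above both DMSO libraries, as 21.4% and 22.2% of all genes did at these times, and both 96 h libraries lay below them. Its 12 h change did not pass the test (0.56 ± 0.16, adjusted p = 0.0587). In the joint test of all 4 times, 6 genes passed, MRPL12, MRPS27, MRPL54, MRPL37, MRPS26 and MRPS34, with adjusted p of 0.00292, 0.00709, 0.0142, 0.0205, 0.0218 and 0.0357, where 10.9% of all genes passed. That share, 6 of 78, is below the background. It was 3 without either 12 h library or without replicate 2 of 48 h.

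Large and small subunit genes were compared by counts and medians, with no test, since genes are not replicates. At 96 h, 5 of 49 large (10.2%) and 7 of 29 small subunit genes (24.1%) fell, beside 6.86% of all genes. The median log2 fold changes were −0.18 and −0.17. By the assembled particle the counts were 5 of 51 (9.80%) and 7 of 26 (26.9%), with medians of −0.17 and −0.18. At 48 h 3 large (6.12%) and 5 small subunit genes (17.2%) fell, beside 5.38% of all genes. The large subunit share is thus near the background. The medians ran the other way, −0.18 for large and −0.10 for small. The large minus small difference of medians ranged from −0.0851 to −0.00923 at 48 h and from −0.0656 to 0.0732 at 96 h over the alternatives, so its sign at 96 h depends on the processing. The small to large ratio of summed CPM by symbol was 0.724 and 0.661 at 96 h, against 0.724 and 0.693 in DMSO, with 0.689 to 0.733 in the other 6 libraries. By the assembled particle it was 0.547 and 0.499 at 96 h, against 0.544 and 0.543 in DMSO. The other 6 libraries, at 0.529 to 0.542, lay below both DMSO libraries. The low value of each ratio at 96 h belongs to replicate 2, 1 of the 2 libraries that stand apart, and the 96 h and DMSO ratios overlap.

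The same was counted by the origin of the protein. Of the 45 with a bacterial counterpart 5 fell at 96 h (11.1%), and of the 31 found only in mitochondria 7 fell (22.6%), beside 6.86% of all genes, while the medians were −0.17 and −0.18. At 48 h the order was not the same, with 5 of the 45 (11.1%, median −0.18) and 3 of the 31 (9.68%, median −0.11) called lower, beside 5.38% of all genes. The 3 genes whose symbol misleads were not called at any time. MRPS30 had 143 and 135 CPM at 96 h, against 172 and 141 CPM in DMSO, and these overlap. MRPS18A had 17.7 and 27.9 CPM, against 22.2 and 22.6 CPM in DMSO, which lie between the 96 h values. MRPS36 had 11.3 and 7.72 CPM, against 10.6 and 10.2 CPM in DMSO, also with overlap.

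The most abundant gene per length, MRPL43, had 192 and 222 CPM at 96 h, against 195 and 222 CPM in DMSO, a log2 fold change of −0.01 ± 0.10, and its groups overlap. Its neighbour TWNK, the helicase of mitochondrial DNA replication, overlaps 4.17% of its exon length on the opposite strand and was named after its values were seen. TWNK fell at every time, to 148 and 166 CPM at 96 h, against 242 and 276 CPM in DMSO, with log2 fold changes of −0.63, −0.69, −0.75 and −0.72 at 12, 24, 48 and 96 h (adjusted p = 0.000407, 0.000141, 2.55e-05 and 1.82e-05). The difference between the 2 genes was not tested.

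The rest of the mitochondrial translation machinery was read against the 6.86% of all genes called lower at 96 h. Of 5 mitoribosome proteins under other symbols, DAP3 and PTCD3, both of the small subunit, fell at 96 h (−0.36, adjusted p = 0.0107, and −0.37, adjusted p = 0.00875), which is 40% of a very short list, and the median of the 5 was −0.31. DAP3 was lost without replicate 2 of 96 h (0.14) and PTCD3 without this library or replicate 1 of DMSO (up to 0.122). Of 28 assembly and rRNA modification genes only RPUSD4, a pseudouridine synthase, fell at 96 h, or 3.57% (−0.51, adjusted p = 0.00724; 0.0682 without replicate 2 of DMSO). Of 17 mitochondrial tRNA synthetases only MARS2 fell, or 5.88% (−0.47, adjusted p = 0.0326; up to 0.203 without replicate 2 of DMSO or of 96 h). Without both libraries together RPUSD4 had −0.34 (adjusted p = 0.0944), with 0 of its list called lower, and MARS2 had −0.19 (adjusted p = 0.509), with 2 other genes of its list called lower. The medians of these lists were −0.18 and −0.17.

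Of 16 translation factors 4 fell at 96 h (25%). C1QBP, a matrix protein needed for mitochondrial translation, stood at 137 and 137 CPM in DMSO, 121 and 111 after 12 h, 102 and 102 after 24 h, 98.7 and 93.9 after 48 h, and 89.1 and 95.4 after 96 h. Every treated library lay below both DMSO ones, and the 96 h log2 fold change of −0.57 (adjusted p = 0.000115) held without each library in turn (up to 0.00404). TUFM, the elongation factor that delivers tRNAs, had −0.45 (adjusted p = 0.00335; 0.0626 without replicate 1 of 96 h). LRPPRC, which stabilises mitochondrial mRNAs, had −0.39 (adjusted p = 0.00557; 0.0825 without replicate 1 of DMSO). No gene of these 4 lists was called higher at any of the 4 times in the fit to all libraries, and 1 tRNA synthetase was at 12 h or 24 h with some single libraries left out.

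Genes outside mitochondrial translation give a scale for these values. Of 16 mitochondrial import and mass genes 10 fell at 96 h (62.5%, beside 6.86% of all genes), with a median of −0.37. Fewer of them were called without some single libraries. The porin VDAC1 (−0.56, adjusted p = 0.000107), the chaperonin HSPD1 (−0.55, adjusted p = 0.000126) and the import receptor TOMM20 (−0.59, adjusted p = 0.000459) kept their calls without each library. Of 78 cytosolic ribosomal protein genes, a list added after the data were seen, 2, 29, 53 and 71 fell at 12, 24, 48 and 96 h. These are 2.56%, 37.2%, 67.9% and 91%, beside 1.92%, 2.25%, 5.38% and 6.86% of all genes, so the 12 h count is near the background. The median of the cytosolic ones was −0.51 at 96 h, beside −0.17 for the mitochondrial ones. The cytosolic list was read only in the fit to all libraries.

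Of 14 genes of mitochondrial transcription and its nuclear regulators 3 fell at each time (21.4%). Of all genes 1.92%, 2.25%, 5.38% and 6.86% were called lower at 12, 24, 48 and 96 h. MYC had 110 and 142 CPM at 96 h, against 280 and 330 CPM in DMSO (−1.28, adjusted p = 1.34e-07, up to 2.2e-06 without each library in turn). PPARGC1B, a coactivator of mitochondrial genes, had −0.49 at 96 h (adjusted p = 0.00409, up to 0.0313). Its relative PPRC1 fell at 12, 24 and 48 h (−0.48, −0.50 and −0.48) and had −0.27 at 96 h (adjusted p = 0.0783). PPRC1 lost its calls without replicate 2 of DMSO or either library of 12 h, without either library of 24 h, and without replicate 2 of 48 h (up to 0.165, 0.138 and 0.056). A relation of these genes to the mitochondrial ribosomal protein genes was not tested.

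The mRNAs that these ribosomes translate gave calls in both directions, which changed with the libraries used. Of 13 mitochondrially encoded mRNAs 0 were called lower at 12, 24 and 48 h, 1 was called higher at 48 h, and at 96 h 3 were called higher and 1 lower, with a median of 0.17. Of all genes 4.01% were called higher at 48 h, and 6.14% higher and 6.86% lower at 96 h. MT-ATP6 had 7162 and 12060 CPM at 96 h, against 6646 and 7132 CPM in DMSO (0.48, adjusted p = 0.0146), and MT-ATP8 had 0.45 (adjusted p = 0.0122). MT-ND2 had −0.38 (adjusted p = 0.0218). Mitochondrial transcripts took 10.9% of counts in replicate 2 of 96 h, against 6.79% to 8.75% in the other 9 libraries. At 12 h 10 of the 13 were called lower without replicate 2 of DMSO and of 96 h together, and up to 12 without a single library. At 24 h 2 were called lower and at 48 h 4 higher without that pair of libraries. Leaving out each library in turn gave 0 to 11 called higher and 0 to 7 lower at 96 h. Without the same pair at 96 h, 0 of the 13 were called higher and 6 lower, and MT-ATP6 had 0.11 (adjusted p = 0.0809), MT-ATP8 0.05 (0.724) and MT-ND2 −0.73 (7.4e-15). The mitochondrial rRNAs carry only short tails and are captured poorly by poly(A) selection. MT-RNR2 ran from 10.6 to 578 CPM over the libraries with replicates far apart, and neither rRNA was called in the fit to all libraries. Both were called higher at 24 h and at 96 h without replicate 2 of DMSO and of 96 h together.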

How the data were processed

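Poly(A) RNA of HS-SY-II cells was measured in 10 libraries, 2 in each of 5 groups. The authors deposited raw read counts per gene, as whole numbers with no normalization. Per the submitters' processing notes, bcl2fastq, FastQC, Trim Galore, cutadapt, STAR on GRCh38 and featureCounts were used. No source used here gives their versions, the gene annotation, whether counting used strand, or how reads with several matches were treated.

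Genes kept by filterByExpr were scaled by TMM, the trimmed mean of M values, and levels are CPM on that scale. All 10 libraries entered 1 model with a mean for each group (edgeR 4.0.16, R 4.3.3), tested by quasi-likelihood F with a Benjamini-Hochberg adjusted p under 0.05 over all genes tested. Residual degrees of freedom were 5 and prior ones 18.5, and the biological coefficient of variation common to all genes was 7.17%. A standard error (SE) is the log2 fold change over the square root of F. The procedure was tested on simulated counts.

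The genes and lists were chosen with earlier results of these data known. Genes of the group are named by a rule, but not all of them are given with the values of every library. The rule takes up to 4 largest rises and falls among called genes at each time, the 3 smallest p where none was called, the 2 highest and 2 lowest per kilobase in each subunit, and the 3 genes whose symbols mislead. From each other list up to 3 called genes are named. Genes called beyond these were named after their values were seen. Gene positions, exon overlaps, transcript length and GC content come from GENCODE 29 on GRCh38, not from the release used for counting, and promoters from RefSeq.

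Alternatives were upper-quartile factors, RLE factors, no filter, 5 CPM in 2 libraries, scaling by library size only, a replicate block, only the 4 libraries compared, DESeq2 1.42.0, limma-voom (limma 3.58.1), an offset smooth in GC content (known for 95.8% of tested genes), and leaving out each library or the 2 that stand apart.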

Additional observations from a re-analysis of the deposited data

Results flagged for a closer look

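For 3 genes the effect at 96 h differed from that at 12 h by a test of the difference itself, since the DMSO libraries cancel and the comparison is 96 h against 12 h in the edgeR fit. MRPL12 had a difference of −0.761 on the log2 scale, with 10.8 and 9.12 CPM at 96 h, against 17.0 and 17.1 CPM at 12 h, lower in 2 of 2 libraries. MRPL54 had a difference of −0.735, with 9.18 and 9.12 CPM at 96 h, against 15.3 and 15.2 CPM at 12 h, also lower in 2 of 2. MRPS27 had a difference of −0.318, with 92.3 and 96.4 CPM at 96 h, against 115 and 120 CPM at 12 h. The adjusted p-values were 0.00525, 0.0117 and 0.0435, where 1.74% of all genes were called lower. MRPS27 lost the call with RLE factors, upper-quartile factors, no filter, the replicate block and only the 4 libraries compared. All 3 genes lost it without some single libraries, as given above. Groups of 2 libraries were not examined for single outlying libraries.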

How the results depend on the processing

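None of the 24 calls changed sign under an alternative. Of 528 gene values under an alternative, 358 kept their side of the threshold and 170 lost it, and of the 24 calls 2 held without every library and 8 under every other setting.

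At 12 h against DMSO the count of genes called lower, 1 as reported, was 0 with no filter, upper-quartile factors, library size only, only the 4 libraries compared, DESeq2 and limma-voom. It was 3 with the GC offset and 4 without replicate 2 of DMSO and of 96 h together, and the count called higher was 1 with upper-quartile factors, library size only, the 4 libraries and the GC offset. At 24 h the count lower was 1 with no filter, 5 with the GC offset and 4 without these 2 libraries. At 48 h it was 3 (3.85%) with upper-quartile factors, library size only, the 4 libraries and DESeq2, beside 3.93%, 3.32%, 2.99% and 3.88% of all genes. It was 15 with the GC offset (19.2%, beside 9.065%). At 96 h it was 7 (8.97%) with library size only and DESeq2, beside 4.96% and 4.87% of all genes. It was 4 with the 4 libraries (5.13%, beside 3.64%) and 20 with the GC offset (25.6%, beside 11.3%). At 48 h against 24 h it was 1 (1.28%) with the 4 libraries and with the GC offset, beside 1.69% and 1.35% of all genes. At 96 h against 12 h it was 6 with the GC offset (7.69%, beside 4.79%). The joint count was 10 with no filter, 3 with DESeq2 and 17 with the GC offset, and the share of all genes under these settings is not given. Leaving out replicate 2 of DMSO and of 96 h together raised the counts lower at 12, 24 and 48 h, at 48 h against 24 h and at 96 h against 12 h. The shares of all genes called lower rose there too. It also raised the joint count. The cause was not tested.

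With the replicate block the counts lower were 0, 6 and 12 at 12, 48 and 96 h, and with the replicate block and GC offset together 3, 5, 16 and 20 at the 4 times, 1 at 48 h against 24 h, 6 at 96 h against 12 h and 17 in the joint test, with 1 called higher at 12 h. Same-numbered libraries mostly did not deviate together, with 1 of 10 correlations above 0.1 (−0.123 to 0.186). The highest, 0.186, was between DMSO and 96 h, whose second replicates also lay apart on the second principal component. The labels do not say whether those 2 libraries were handled together, and this was not tested.

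Leaving out each library in turn gave 0 to 1 called higher and 0 to 2 lower at 12 h, 0 to 3 lower at 24 h, 0 to 13 at 48 h, 6 to 11 at 96 h, 0 to 5 at 96 h against 12 h, and 3 to 9 in the joint test. A left-out library leaves its group with 1, which is assumed to vary like the others. The median log2 fold change stayed between −0.22 and −0.124 at 96 h and −0.207 and −0.0969 at 48 h. With library size only the median of all genes at 12 h was 0.0621, against −0.00212 as reported, and the median of the group relative to it by less than the replicate spread. Genes with fewest counts, such as MRPL53 and MRPL23 (18 counts in the poorest library), limit what can be said of them.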
